A study of Mus musculus with 65 samples.

Results

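RNA was compared between p3 and pMN progenitors that arose in the same kind of culture, mouse embryonic stem (ES) cells differentiated with 100 nM SAG, a small-molecule agonist of the Sonic hedgehog (Shh) pathway. The comparison took 12 of the 65 libraries of the series, namely all p3 and pMN libraries of the 100 nM cultures on day 5 and day 6, with 6 libraries a side, 3 from each day, and with day as a block. All 12 came from HM1, 1 mouse ES cell line, and replicates were independent differentiations. The same replicate numbers recur on both days, and the sources used here do not state whether a number marks the same differentiation on both. No fit linked a number across days, so the 6 libraries a side may hold fewer than 6 independent differentiations. The SDs and p-values below do not allow for this. Every culture had passed through bFGF and the inhibitor LGK, then bFGF, CHIR99021, SB-431542 and DMH1, and from day 3 received 100 nM retinoic acid (RA) together with SAG. Cells were fixed, stained inside the cell and sorted from the SOX2+ gate: p3 cells were NKX2.2+ and OLIG2-, pMN cells were OLIG2+, and cells positive for both proteins were kept out of the pMN gate. The p2 libraries of the 100 nM cultures, 6 in number, and the p3 and pMN libraries at 500 nM, 5 of each, are used below as references on days 5 and 6.

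In the embryo, Shh from the notochord and floor plate divides the ventral neural tube into progenitor domains that each express their own transcription factors. The pMN domain expresses OLIG2 and gives rise to motor neurons, and the p3 domain below it expresses NKX2.2 and gives rise to V3 interneurons. Factors of neighbouring domains repress each other, NKX2.2 and PAX6 being a classical pair, and the forkhead factor FOXA2 marks the floor plate and ventral progenitors early in their history.

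The deposited values are read counts divided by 1 size factor per library and are called normalised reads here. Total reads ran from 8937621 to 13079934 over the 12 libraries. Although p3 libraries held more reads (exact permutation test within days, two-sided, p = 0.015, 400 arrangements), fewer genes had a read in them, 11684.5 ± 974 (SD, n = 6) against 13025.5 ± 712 (n = 6) in pMN (exact permutation p = 0.03). Of the p3 libraries, replicate 2 of each day had the fewest genes with a read, 10571 on day 5 and 10338 on day 6. At 500 nM the medians stood in the other order, 13424 genes in p3 (12474 to 14088) and 12714 in pMN (11493 to 13923), with ranges that overlapped. The part of this gap in gene number in the differences below was not tested as such. How many calls held with gene number as a covariate, and without both replicate 2 libraries of p3, is given after the genes.

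**Figure D1:**
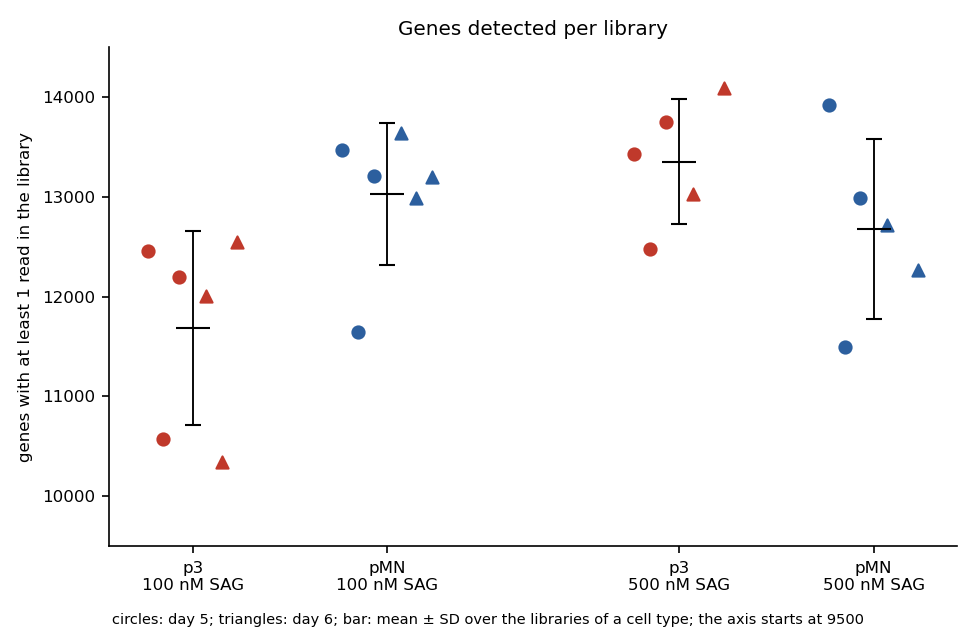
Number of genes with at least 1 read in each library of p3 and pMN at 100 nM and 500 nM SAG on days 5 and 6; each point is 1 library (circles day 5, triangles day 6), bars are the mean and SD, and the vertical axis does not start at 0. The p3 libraries at 100 nM reach from 10338 to 12543 genes and the pMN libraries from 11649 to 13643, whereas at 500 nM the p3 libraries reach from 12474 to 14088.

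Few genes passed the threshold between p3 and pMN at 100 nM, while 2213 of those tested had an unadjusted p below 0.05 in limma. The number of calls therefore does not measure how many genes differ. Of 13964 genes tested (mean of at least 10 normalised reads), 65, or 0.465%, passed an adjusted p of 0.01 with a change of more than 2-fold in limma, 19 (0.136%) higher and 46 (0.329%) lower in p3. The median change was 2.97 on the log2(value + 1) scale among the 19, or 3.58 with the 3 genes at 0 in every pMN library set at their lower bound, and -3.78 among the 46, beside -0.28 over all genes tested. At least 1 p3 library was at 0 for 28 of the 46, and there the change in mean log2 can be larger than the ratio of the means. Under quantile normalisation the median of all genes was -0.06 and the calls split 31 higher and 31 lower, and with gene number as a covariate they were 28, of which 15 were higher and 13 lower. With a replicate block there were 39 calls over all libraries, 12 higher and 27 lower, 33 of them among the 65, and 0 in the 12 libraries alone. On the reads recovered from the values, edgeR called 24 genes and DESeq2 873. Without overlap between the 6 p3 and 6 pMN libraries stood 9 of the 19 higher and 20 of the 46 lower genes, beside 0.415% of all tested genes in the higher and 0.53% in the lower direction. In bulk RNA of sorted cells, fewer cells of a type and less RNA per cell cannot be told apart.

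Transcripts of the stained proteins differed unevenly between the gates. Nkx2-2, which encodes the protein that defines p3 (mm10, chr2:147177546-147186402), counted 315, 352 and 291 normalised reads in the p3 libraries of day 5 and 426, 214 and 295 in those of day 6. In pMN it counted 3.23, 0 and 0.921 on day 5 and 9.76, 4.08 and 2.16 on day 6. The groups lay far apart, and the log2 change was 6.53 (SE 0.87, adjusted p = 9.44e-06). It passed in all 12 fits that left out 1 library and in 9 of 11 other fits, those that missed being edgeR (adjusted p = 0.0724) and the fit of the 12 libraries alone with a replicate block (0.0763). Exons of the antisense transcript Nkx2-2os overlap it, and reads of the 2 cannot be told apart unless counted by strand, which the sources used here do not state.

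Olig2, the gene of the protein that defines pMN (chr16:91225550-91228677), did not pass. It counted 649.6, 502 and 1004 in p3 on day 5 and 1532, 0 and 1741 on day 6, and between 1368 and 4753 in the 6 pMN libraries. The p3 range thus reached into that of pMN although the p3 gate excluded OLIG2 protein, and the log2 change of -3.26 had an SE of 1.12 (adjusted p = 0.116, and 0.0259 to 0.628 over the alternatives). The 0 stood in the p3 library with the fewest genes. Sox2, the factor that marks the gate common to both types, stood at 1857 ± 522 in p3 and 1504 ± 461 in pMN (SD, n = 6 each, adjusted p = 0.626).

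Pax6, a homeodomain factor of the more dorsal progenitors that was also stained (chr2:105668896-105698410), fell in p3. It counted 109, 248 and 101 on day 5 and 236, 77.1 and 207 on day 6 in p3, against 1639, 2089 and 2022, then 1406, 1694 and 2246, in pMN. No p3 library came near the lowest pMN library. The log2 change was -3.62 (SE 0.54, adjusted p = 0.000114). It passed in 11 of 12 other fits and in all 12 fits that left out 1 library, and was -3.15 (SE 0.61) at 500 nM. The p2 libraries, from the domain dorsal to pMN, held 1847 to 4013. Exons of Elp4 overlap Pax6 on the opposite strand. Nkx6-1, a homeodomain factor shared by the ventral domains, was 605 ± 207 in p3 and 457 ± 202 in pMN (adjusted p = 0.81), and the neuronal tubulin Tubb3 had a log2 change of 1.09 (adjusted p = 0.712).

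Among 8 genes listed for p3 and its V3 neurons, 4 were tested, 1 of which rose and none fell, with a median of 2.76. Besides Nkx2-2, its relative Nkx2-9 counted 1576, 1424 and 2394 on day 5 and 573, 811 and 1058 on day 6 in p3. The pMN libraries counted 131, 0 and 560.0, then 105, 189 and 349. The lowest p3 library stood just above the highest pMN library, and the log2 change of 3.71 missed the threshold (SE 0.96, adjusted p = 0.0298). Nkx6-2, a relative of Nkx6-1, counted 953 to 1891 in p3 and 192 to 641 in pMN, again without overlap and again short of the threshold (log2 change 1.80, SE 1.17, adjusted p = 0.469); exons of Inpp5a overlap it on the opposite strand. The V3 genes Sim1, Neurog3 and Uncx were at 0 in all 12 libraries, each allowing up to 3 reads per library, which covers counting error only.

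Genes known from the floor plate, the Shh-secreting midline cells next to p3, made up the list with the most higher genes. Of 14 listed genes 9 were tested, and 3 rose, Shh, Ntn1 and Vtn, while none fell; all 9 changes were positive, with a median of 3.65. Summed over the list, p3 libraries held 4183 to 18780 normalised reads and pMN libraries 1605 to 2470. The midline markers Corin and Noto were at 0 in all 12 libraries, and the notochord gene T had reads in 1 library only, replicate 1 of p3 on day 6. The paper set floor plate cultures beside its spinal cord cultures and reported little floor plate marker expression in the latter, even on day 6. That comparison was between culture conditions, not between p3 and pMN cells of 1 condition as here. The paper also reported Foxa2 RNA in p3 progenitors and, by lineage tracing in embryos, p3 cells with past Foxa2 expression. Whether p3 cells or a share of floor plate cells in the gate carried the reads counted here was not tested.

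Foxa2, the forkhead factor of the ventral midline (chr2:148042877-148046969), counted 977, 427 and 499.6 in p3 on day 5 and 756, 453 and 2341 on day 6. In pMN it counted 88.8, 346 and 0 on day 5 and was at 0 in all 3 libraries of day 6. The groups did not overlap, yet with an SE of 1.61 the log2 change of 7.05 stood just outside the threshold (adjusted p = 0.0118, and 9.15e-09 to 0.246 over the alternatives). With gene number as a covariate its adjusted p was 0.00866.

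Shh, the secreted signal itself (chr5:28456840-28467101), counted 250.1, 0.880 and 399.7 on day 5 and 133, 151 and 952 on day 6 in p3. It was at 0 in 5 pMN libraries and at 8.78 in the sixth, replicate 1 of day 6. The 1 p3 library near 0, replicate 2 of day 5, made the groups overlap, and the log2 change was 6.41 (SE 1.13, adjusted p = 0.000655). Exons of 9530036O11Rik overlap Shh on the opposite strand.

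Ntn1, which encodes the axon guidance protein netrin-1 (chr11:68209364-68386826), counted 5294, 2649 and 3658 on day 5 and 4006, 5314 and 7259.8 on day 6 in p3. In the pMN libraries it counted 812, 1412 and 1425, then 849.9, 754 and 1257. The groups stood clear of each other, with a log2 change of 2.09 (SE 0.34, adjusted p = 0.000179) that was 2.05 (SE 0.38) at 500 nM. Slit1, another axon guidance gene (chr19:41600257-41743856), counted 3967, 2667 and 2347, then 4071, 4705 and 5165, in p3. It reached no more than 312 in any pMN library and was at 0 in 1 of them. The log2 change of Slit1 was 5.95 (SE 0.98, adjusted p = 0.000247), and it passed in all 12 fits that left out 1 library. Slit2, a relative on the floor plate list, had a log2 change of 0.41 (adjusted p = 0.921).

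Vtn, the gene of the matrix protein vitronectin (chr11:78499120-78502325), counted 802, 1.76 and 1158 on day 5 and 2171, 2355 and 2023 on day 6 in p3. In pMN it was at 0 in 4 libraries and counted 198 and 54.0 in replicates 2 and 3 of day 6. As for Shh, p3 replicate 2 of day 5 was the only p3 library within the pMN range. The log2 change was 6.86 (SE 1.49, adjusted p = 0.00757); it passed in 4 of the 12 fits that left out 1 library.

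**Figure D2:**
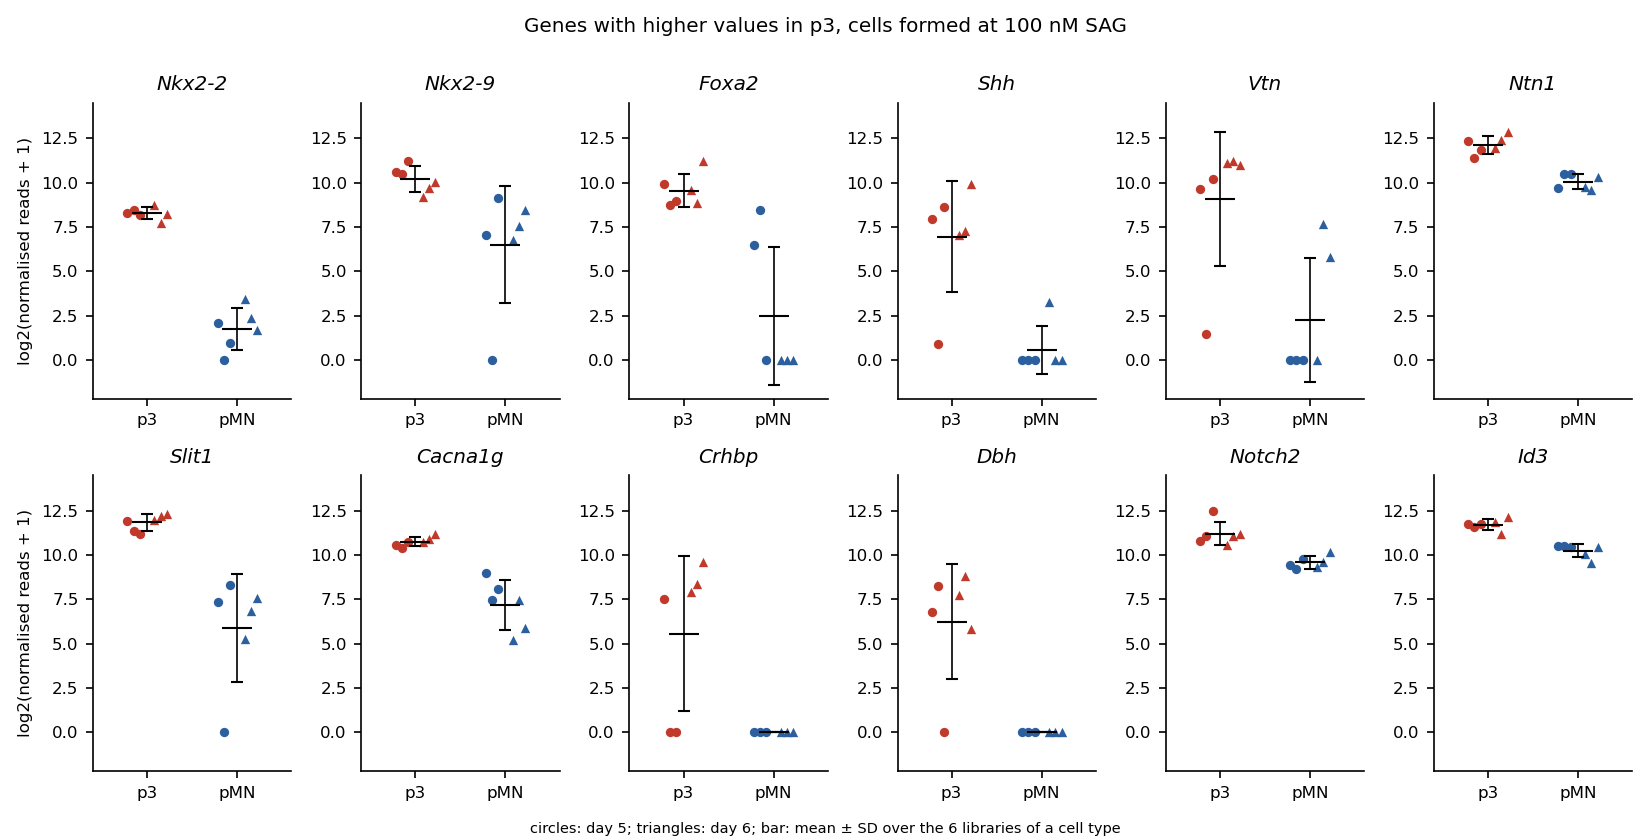
Normalised reads of 12 genes in the 6 p3 and 6 pMN libraries at 100 nM SAG, as log2(value + 1); each point is 1 library (circles day 5, triangles day 6) and bars are the mean and SD of 6 libraries. Nkx2-2 lies between 214 and 426 in p3 and at or below 9.76 in pMN, and Shh and Vtn each show 1 low p3 library.

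The promoters of 4 higher genes are shown because they hold a match to a motif of NKX2 or forkhead factors, the families of Nkx2-2 and Foxa2. They are the 250 bases before the gene start, from RefSeq on GRCm38.p6, at chr2:147186403-147186652 on the minus strand for Nkx2-2, chr11:78498870-78499119 on the plus strand for Vtn, chr13:95444832-95445081 on the minus strand for Crhbp and chr2:27165257-27165506 on the plus strand for Dbh. Capitals mark CACTTNA on either strand in the first 3, a CAGATG E-box that lies before it in Nkx2-2, and TGTTTGC in Dbh.
Nkx2-2: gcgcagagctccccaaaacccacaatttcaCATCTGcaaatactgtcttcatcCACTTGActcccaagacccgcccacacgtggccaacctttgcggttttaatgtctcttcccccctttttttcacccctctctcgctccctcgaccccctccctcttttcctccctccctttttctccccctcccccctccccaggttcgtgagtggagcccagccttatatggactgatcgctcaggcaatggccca
Vtn: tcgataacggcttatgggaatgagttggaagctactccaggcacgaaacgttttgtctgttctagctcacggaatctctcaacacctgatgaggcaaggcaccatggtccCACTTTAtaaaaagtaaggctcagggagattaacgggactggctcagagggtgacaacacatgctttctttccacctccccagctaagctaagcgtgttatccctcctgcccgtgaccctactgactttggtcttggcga
Crhbp: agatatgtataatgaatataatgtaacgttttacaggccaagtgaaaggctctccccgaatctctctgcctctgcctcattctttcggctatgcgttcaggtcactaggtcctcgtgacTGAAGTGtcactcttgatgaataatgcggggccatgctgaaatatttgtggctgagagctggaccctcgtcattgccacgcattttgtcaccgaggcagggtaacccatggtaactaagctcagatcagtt
Dbh: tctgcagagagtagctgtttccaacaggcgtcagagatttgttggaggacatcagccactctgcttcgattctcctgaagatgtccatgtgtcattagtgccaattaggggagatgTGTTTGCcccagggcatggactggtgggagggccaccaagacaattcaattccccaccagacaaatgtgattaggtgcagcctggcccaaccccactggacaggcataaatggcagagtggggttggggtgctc

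Of the 19 higher genes 11 had a promoter in the RefSeq table, as had 38 of the 46 lower genes. A gene was counted if any of its promoters held the motif, so genes with several promoters had more chances. CACTTNA, searched on both strands, stood in 3 of the 11 (27.3%) and in 2 of the 38 (5.26%), beside 11.4% of all 27025 genes with a promoter. TGTTTGC stood in 1 of the 11 and 2 of the 38, beside 4.93% of all genes with a promoter, and the other forkhead form, TGTTTAC, in none of either, beside 3.54%. The GLI motif CCACCCA, read by the transcription factors of the Shh pathway, stood in none of the 11 and 2 of the 38, beside 9.29%. The E-box CAGCTG stood in none of the 11 and in 7 of the 38 (18.4%), beside 14.7%. CAGATG stood in 1 and 4 (16.3% of all), and the homeodomain core TAATTA, which reads the same on both strands, in none and 2 (5.65% of all). With so few genes these counts are a description of the letters only.

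Cacna1g, a T-type calcium channel subunit (chr11:94408391-94474198), counted 1526, 1376 and 1699, then 1718, 1918 and 2329.9, in p3, and 504, 176 and 272, then 36.1, 176 and 58.3, in pMN. The groups did not overlap (log2 change 3.58, SE 0.55, adjusted p = 0.000117). Dbh, dopamine beta-hydroxylase, the enzyme that makes noradrenaline, was at 0 in all 6 pMN libraries and in all 6 p2 libraries. In p3 it counted 111, 311 and 0 on day 5 and 216, 449 and 55.4 on day 6, a mean at least 64.8-fold higher than a floor of 3 reads per library. Its adjusted p was 9.44e-06 in limma, 0.0865 in edgeR and 0.488 in DESeq2.

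Of 11 genes listed for hindbrain visceral motor neurons and serotonergic neurons, 4 were tested and none passed, with a median of 2.40. Of the 4 changes 3 were positive. Summed over the list, p3 libraries held 1787 to 4635 normalised reads and pMN libraries 226 to 1032, without overlap. The serotonergic genes Fev, a transcription factor, and Tph2, the enzyme of serotonin synthesis in neurons, were at 0 in all 12 libraries.

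Crhbp, the binding protein of corticotropin-releasing hormone, was at 0 in all pMN libraries. In p3 it counted 187, 0 and 0 on day 5 and 239, 334 and 781 on day 6, at least 87.4-fold higher than the floor (adjusted p = 0.0033). Sphkap, a protein that anchors protein kinase A, was likewise at 0 in pMN, and at 0 in all p3 libraries of day 5, with 22.5, 141 and 67.1 on day 6 (adjusted p = 0.00826). It passed in 1 of the 12 fits that left out 1 library. Tmem100, a membrane protein gene, counted 0 to 543 in p3 and at most 2.42 in pMN (log2 change 6.14, SE 1.32, adjusted p = 0.00654), and Ly6h, of the Ly6 family, 73.1 to 730.0 against 1.07 to 93.0 (4.03, SE 0.88, adjusted p = 0.00775).

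The other higher genes were well read in both types and changed less. Cdk6, a G1 cyclin-dependent kinase, stood at 2057 ± 844 in p3 and 477 ± 194 in pMN (SD, n = 6 each; log2 change 2.07, SE 0.38, adjusted p = 0.00107), overlapping only through p3 replicate 1 of day 6. Gpx3, a secreted glutathione peroxidase, stood at 6311 ± 2754 and 1796 ± 854 (1.83, SE 0.33, adjusted p = 0.000911). Igsf9b, Lrp1, Nnat and Septin3 also rose, by 1.13 to 1.49 on the log2 scale, and are named after their values were seen. Nnat, the imprinted gene of neuronatin, was the only one of the 19 with a change below 0.5 at 500 nM, 0.33 (SE 0.21).

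The Notch pathway, by which neighbouring progenitors hold each other back from becoming neurons, was split: of 15 genes, all tested, 1 rose, 1 fell and 13 did not pass, with a median of -0.34. The receptor Notch2 (chr3:98013538-98150367) counted 1754, 2187 and 5657, then 1549, 2188 and 2342, in p3, and 701, 589.8 and 895, then 642, 779.7 and 1154, in pMN. Every p3 library lay above every pMN library (log2 change 1.61, SE 0.30, adjusted p = 0.00154). The receptors Notch1 and Notch3 had changes of -0.65 (adjusted p = 0.341) and 0.88 (adjusted p = 0.106).

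The ligand Dll1 (chr17:15367354-15375823) counted 1393, 698 and 341, then 339, 1521 and 1054, in p3. Its counts in pMN were 2679, 2464 and 3093, then 1823, 1361 and 3238, so that 2 p3 libraries reached the lowest pMN library. It fell by 1.64 on the log2 scale (SE 0.36, adjusted p = 0.00969, just inside the threshold). The effectors Hes5 and Hes1, which encode repressors of proneural genes, each separated the groups in opposite directions and neither passed. Hes5 counted 2985 to 6450.2 in p3 and 7895 to 10681 in pMN (log2 change -1.02, SE 0.27, adjusted p = 0.0357), with -1.60 (SE 0.30, adjusted p = 0.00365) at 500 nM. Hes1 counted 1199.9 to 2510.2 in p3 and 336 to 1169 in pMN (1.22, SE 0.42, adjusted p = 0.116). Id3, a helix-loop-helix inhibitor that was no list member and is named after its values were seen, counted 2339.9 to 4479.9 in p3 and 752 to 1461 in pMN (1.46, SE 0.31, adjusted p = 0.00598).

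**Figure D3:**
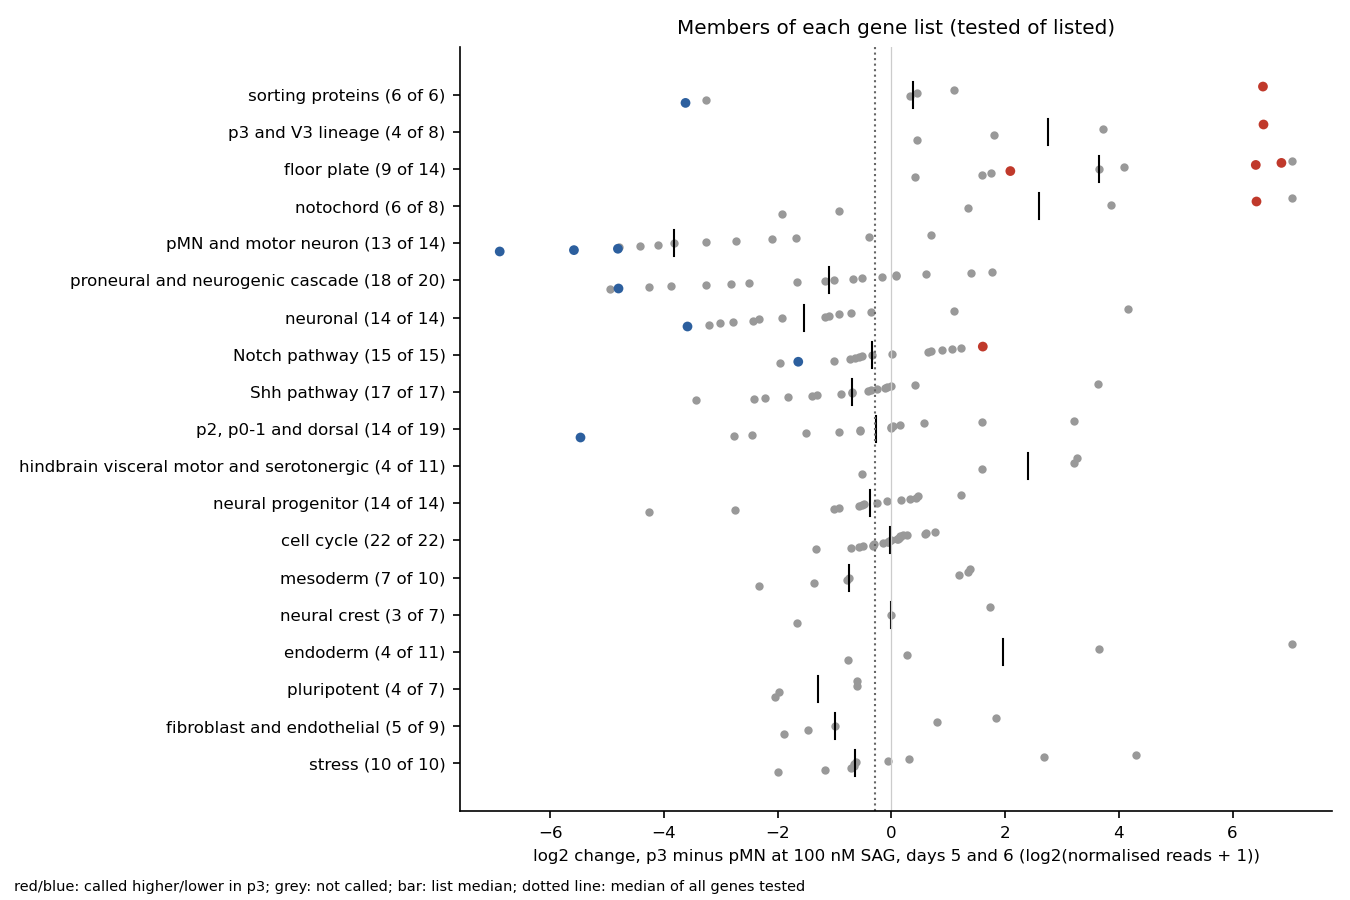
Log2 change of p3 against pMN at 100 nM for each tested member of the gene lists, 1 point per gene, with genes that passed the test in red (higher) or blue (lower), the list median as a bar and the median of all tested genes as a dotted line. Floor plate genes all lie above 0 with a median of 3.65, pMN and motor neuron genes lie below 0 in 12 of 13 cases with a median of -3.82, and cell cycle genes centre on -0.02.

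Genes of pMN and its motor neurons were the counterpart. Of 14 listed, 13 were tested, 3 fell and none rose, and 12 of the 13 changes were negative, with a median of -3.82. Lhx3, a LIM homeobox gene of motor neuron fate (chr2:26200212-26208249), was at 0 in 5 p3 libraries and at 177 in replicate 3 of day 6. In pMN it counted 320.3, 135 and 388, then 341, 116 and 714. It fell by 6.89 on the log2 scale (SE 1.20, adjusted p = 0.000515), and by 6.20 (SE 1.34) at 500 nM. Chat, choline acetyltransferase, which makes the motor neuron transmitter acetylcholine, had 1 normalised read or less in every p3 library. Its pMN libraries held 96.0, 2.14 and 23.9 on day 5 and 124, 133 and 172 on day 6, so that the groups did not overlap (log2 change -5.58, SE 0.85, adjusted p = 0.000114).

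Neurog2, the proneural factor that drives pMN cells to leave the cycle as motor neurons (chr3:127633136-127635631), counted 0, 0 and 234 on day 5 and 318, 550.1 and 206 on day 6 in p3. The pMN counts were 896, 1001 and 1134, then 1724, 1053 and 2229. The highest p3 library stayed below the lowest pMN library, and Neurog2 fell by 4.81 on the log2 scale (SE 0.89, adjusted p = 0.0013). Its mean was 6.14-fold higher in pMN, less than that log2 change would give, with 2 p3 libraries at 0. The change was -7.35 on day 5 and -2.27 on day 6, a difference between days that did not pass. The other members did not pass: Isl1, a LIM homeobox gene of motor neurons, had a change of -4.43 (adjusted p = 0.0268), Olig1 of -4.79 (adjusted p = 0.0466) and Lhx4 of -4.10 (adjusted p = 0.045). Mnx1, the gene of the motor neuron factor HB9, was 92.5 ± 118 in p3 and 91.1 ± 87.9 in pMN.

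Beyond Neurog2, the neurogenic cascade showed no member that passed among 18 tested of 20, with a median of -1.09. Neurod1, a downstream helix-loop-helix factor, counted 3.72 to 447 in p3 and 413 to 1753 in pMN (log2 change -3.88, SE 0.97, adjusted p = 0.0225). Gadd45g had a change of -1.17 (adjusted p = 0.0339). Mir124a-1hg, the host transcript of the neuronal microRNA miR-124, fell by 5.66 (SE 0.96, adjusted p = 0.00038), with 0.825, 0 and 0 on day 5 and 205, 3.72 and 24.3 on day 6 in p3 against 156 to 1099.7 in pMN. Of 14 neuronal genes 1 fell, Rbfox3, the gene of the marker NeuN (-3.59, adjusted p = 0.00969), and none rose; the microtubule gene Map2 had a change of 4.15 (adjusted p = 0.0179) with 143 to 1083 in p3 and 4.03 to 153 in pMN.

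Among lower genes chosen by size, 3 of the first 12 were at 0 in every p3 library. Rgs8, a regulator of G protein signalling (chr1:153653037-153697667), counted 144, 397 and 224, then 142, 61.2 and 127, in pMN, at least 71.0-fold over the floor (adjusted p = 0.000359). At 500 nM it was at 0 in 4 of 5 p3 libraries and at 75.3 in the other, against 105 to 608 in pMN. Cldn3, a tight junction gene (chr5:134986214-134987476), counted 257, 281 and 112, then 175, 193 and 377, in pMN, at least 90.4-fold over the floor (adjusted p = 0.00403). At 500 nM, in contrast, p3 libraries held 31.8 to 167 reads of Cldn3 and the change was -0.36 (SE 1.76). Gm15412 counted 15.7 to 328 in pMN (adjusted p = 0.00432). Exons of Wbscr25 overlap Cldn3 on the opposite strand.

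Prdm8, a histone methyltransferase family gene of the p2 to dorsal list (chr5:98180869-98187448), was the only one of its 14 tested members to pass. It counted 0, 44.9 and 8.02, then 154, 139 and 0, in p3, and 439.7, 663 and 495, then 667, 971 and 713, in pMN, without overlap (log2 change -5.47, SE 1.14, adjusted p = 0.00518); A730035I17Rik overlaps it on the opposite strand. Slc1a2, a glutamate transporter, stood at 48.8 ± 91.7 in p3 and 518 ± 338 in pMN (-6.50, SE 1.45, adjusted p = 0.00958), with Gm13872 on the opposite strand. Stk32a, a kinase gene, had 0 to 64.3 against 184 to 509 (-6.12, SE 1.11, adjusted p = 0.000954), and Map7, which binds microtubules, 0 to 139.9 against 121 to 711 (-4.98, SE 0.78, adjusted p = 0.000141). Map7 overlapped, as did the remaining genes chosen by size: Xlr3a, an X-linked lymphocyte-regulated family gene, 0 to 324 against 18.5 to 1096, Lzic, 0 to 301 against 240.2 to 558, and Slx4, a scaffold of DNA repair nucleases, 0 to 332 against 52.9 to 418.

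Some lower genes were well read in every p3 library; they are named after their values were seen. Slc39a14, a metal ion transporter, stood at 1796 ± 814 in p3 and 4429.7 ± 1149.8 in pMN (log2 change -1.40, SE 0.22, adjusted p = 0.000141). Sp8, a zinc finger factor, counted 70.2, 666 and 1089.6, then 363, 686 and 275, in p3, and 1262 to 3577 in pMN, without overlap (-2.51, SE 0.48, adjusted p = 0.0018). Btbd17 counted 1391 to 4576 and 6608 to 10016 (-1.64, SE 0.32, adjusted p = 0.00246), also without overlap. Sfrp2, a secreted Wnt antagonist, stood at 1639.6 ± 652 and 3798 ± 1517 (-1.23, SE 0.24, adjusted p = 0.00223).

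**Figure D4:**
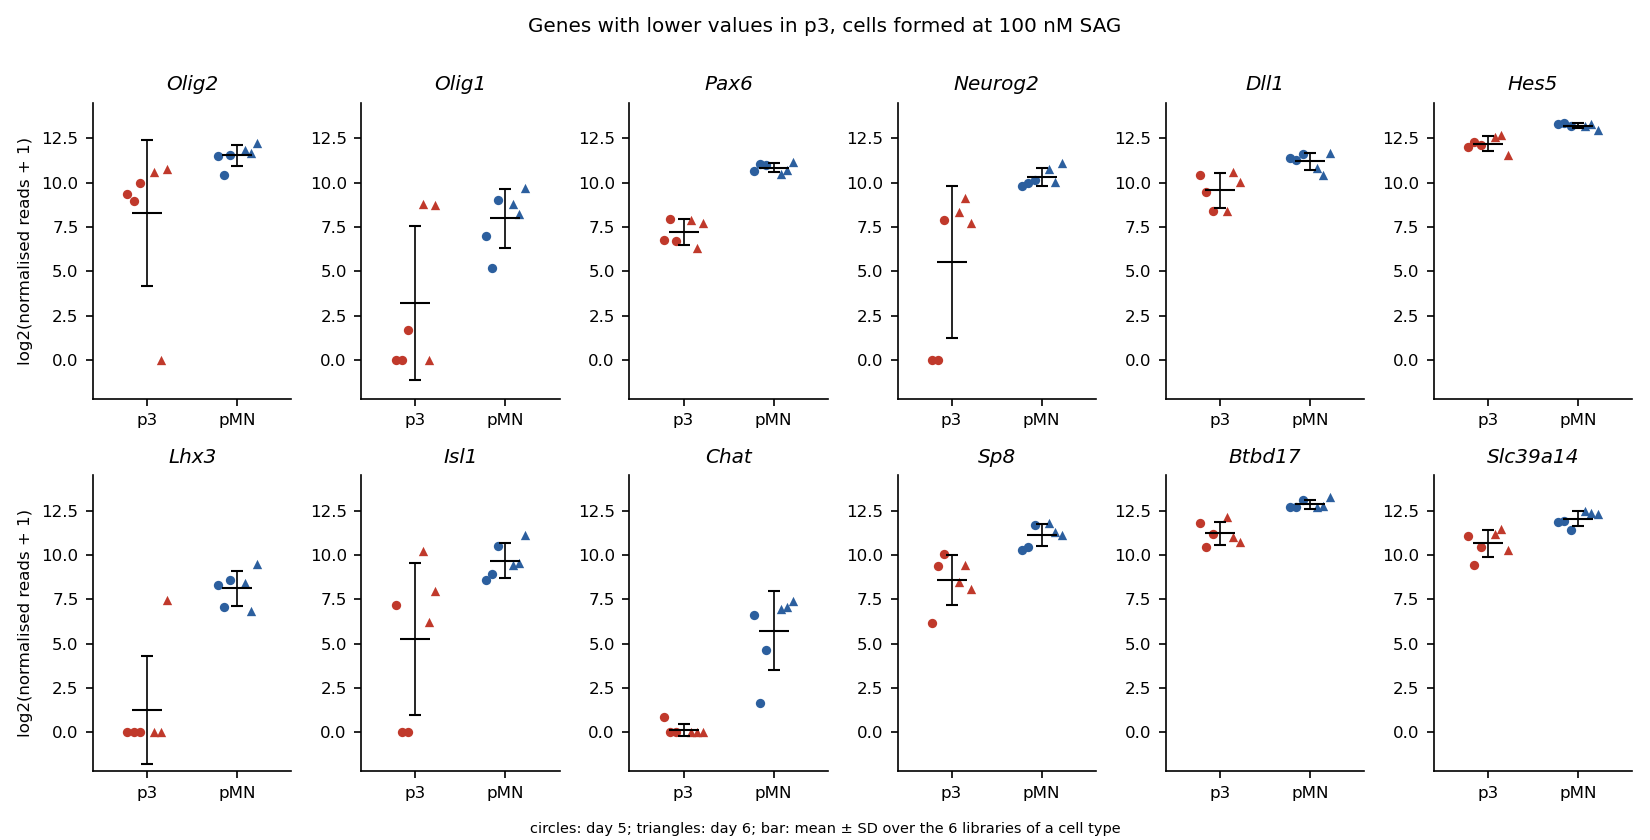
Normalised reads of 12 genes in the 6 p3 and 6 pMN libraries at 100 nM SAG, as log2(value + 1); each point is 1 library (circles day 5, triangles day 6) and bars are the mean and SD of 6 libraries. Pax6 lies between 77.1 and 248 in p3 and between 1406 and 2246 in pMN, Lhx3 is at 0 in 5 p3 libraries, and Olig2 of p3 overlaps that of pMN.

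Calls differed in how far they rested on single libraries. Called in all 12 fits that left out 1 library were 11 of the 19 higher and 13 of the 46 lower genes. Of the higher genes, Lrp1 passed in 7 of these fits, Ly6h and Septin3 in 5, Vtn in 4, Id3 and Tmem100 in 3 and Sphkap in 1. Of the lower genes named, Cldn3 and Xlr3a passed in 7, Pcdh18 in 5, Prdm8 and Slx4 in 4, Dll1 and Rbfox3 in 3 and Slc1a2 in 2.

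With gene number as a covariate 12 of the 19 higher genes were called, and Cdk6, Id3, Notch2, Septin3, Sphkap, Tmem100 and Vtn no longer passed (adjusted p = 0.0144 to 0.0276 in limma). Of the 46 lower genes 13 were called, and the 33 that no longer passed (adjusted p = 0.0113 to 0.0899) included Neurog2, Dll1, Rbfox3, Prdm8, Cldn3, Gm15412, Slc1a2, Stk32a, Xlr3a, Lzic, Slx4 and Sfrp2. Without both replicate 2 libraries of p3, Lrp1, Ly6h, Septin3 and Sphkap were lost among the higher genes (0.0128 to 0.0568), and 26 of the lower genes (0.0112 to 0.214), Cldn3, Rbfox3, Slc1a2, Stk32a, Slx4, Btbd17 and Sfrp2 among them. The replicate block over all libraries ended 7 higher calls, Crhbp, Id3, Ly6h, Septin3, Sphkap, Tmem100 and Vtn (0.0134 to 0.0376), and 25 lower calls (0.0131 to 0.0488), among them Dll1, Prdm8, Rbfox3, Slc1a2 and Slx4. Nkx2-2, Shh, Ntn1, Slit1, Cacna1g, Dbh, Pax6, Lhx3, Chat, Rgs8 and Map7 passed in all 3 of these fits.

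Lists for pathway output, cell state and other cell types held no called gene other than Shh. Of 17 Shh pathway genes, all tested, none passed, with a median of -0.68. The direct targets Ptch1, the Shh receptor, and Gli1, a transcription factor, which rise with pathway activity, stood at 4395 ± 861 in p3 and 4427 ± 949.7 in pMN (log2 change -0.01, SE 0.27) and at 1136 ± 462 and 1284 ± 219 (-0.25, SE 0.64); Arhgap9 overlaps Gli1 on the opposite strand. Of 22 cell cycle genes none passed and the median was -0.02. Of 14 neural progenitor genes none passed. The lists for mesoderm, with 7 genes tested of 10, neural crest, with 3 of 7, endoderm, with 4 of 11, pluripotent cells, with 4 of 7, fibroblast and endothelial cells, with 5 of 9, and stress, with 10 of 10, held no gene that passed. The notochord list, with 6 tested of 8, held Shh as the only gene that passed. The medians of the notochord and endoderm lists were 2.60 (3.88 with 1 gene at 0 in every pMN library at its bound) and 1.96, both lists sharing Foxa2 with the floor plate list and the endoderm list Foxa1 as well; endoderm genes summed to 637.5 to 2881 normalised reads in p3 libraries and 0 to 795.7 in pMN, and the part of such cells in the results was not tested. The defining crest genes Sox10 and Foxd3 and the endoderm genes Sox17, Ttr and Afp were at 0 in all 12 libraries.

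The same contrast at 500 nM, in libraries that played no part in the calls at 100 nM except for the shared estimate of spread, had 17 calls (0.122%), 10 higher (0.0716%) and 7 lower (0.0501%). All 19 genes called higher at 100 nM had the same sign at 500 nM, 17 by more than 2-fold, 18 with an unadjusted p below 0.05 and 6 called, and their median was 3.11. Over all 5015 tested genes with a positive change at 100 nM, 3050 had the same sign and 360 an unadjusted p below 0.05. Of the 46 lower genes 38 had the same sign, 24 by more than 2-fold, 21 with an unadjusted p below 0.05 and 4 called, with a median of -1.22, beside 4064 and 218 of 8821 tested genes with a negative change at 100 nM.

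Split by the unadjusted p at 500 nM alone, the 21 lower genes with an unadjusted p below 0.05 at 500 nM included Pax6, Neurog2, Lhx3, Chat, Dll1, Rgs8, Sp8, Btbd17, Slc39a14 and Sfrp2. Without overlap at 100 nM stood 13 of the 21 and 7 of the other 25, beside 0.53% of all tested genes in the lower direction. The other 25 had changes of -2.30 to 1.12 at 500 nM with a median of -0.22, negative for 17, and included Cldn3, Lzic, Slx4, Prdm8, Robo1 and Borcs7. With gene number as a covariate at 100 nM, 9 of the 21 and 4 of the 25 were called, and without both replicate 2 libraries of p3 13 of the 21 and 7 of the 25. Of the 19 higher genes these counts were 12 and 15. No gene passed the test of the difference between 100 and 500 nM in limma (0.0% called), with 1283 genes at an unadjusted p below 0.05.

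**Figure D5:**
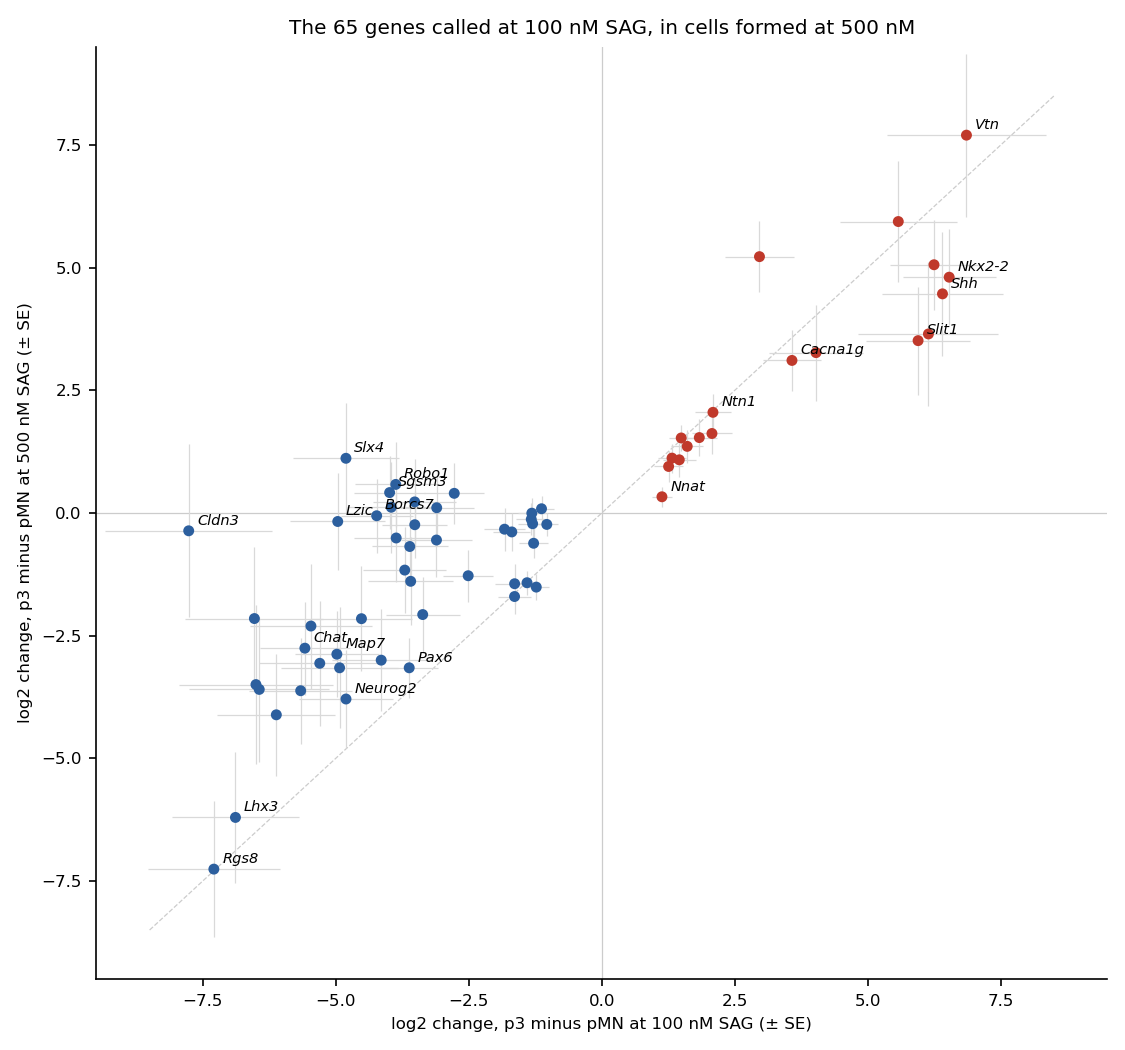
Log2 change of p3 against pMN at 100 nM (horizontal) and at 500 nM (vertical) for the 65 genes called at 100 nM, 1 point per gene with its SE on each axis, and the dashed line of equal change. All 19 higher genes lie above 0 on both axes, while 8 of the 46 lower genes lie at or above 0 at 500 nM.

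Levels at the called genes were also read in p2, which comes from the next domain up. The mean of the 6 p2 libraries was nearer to pMN than to p3 for all 19 higher and for 38 of the 46 lower genes, beside 3365 of 5015 and 4952 of 8821 over all tested genes; since the genes were chosen on p3 and pMN, this is a description. Nkx2-2 was at 0 in 5 p2 libraries and at 5.54 in the other, and Shh and Dbh were at 0 in all 6. Slit1 counted 45.3 to 427 in p2, and Pcdh18, a protocadherin, 391 to 932, above the p3 range of 0 to 351 and reaching into the pMN range of 786 to 1249.9.

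On single days, with 3 libraries a side, 8 genes (0.0573%) passed on day 5 and 25 (0.179%) on day 6, and none passed on both. On day 5 Nkx2-2 rose (0.00716% of genes) and 7 genes fell (0.0501%), Neurog2, Map7, Mir124a-1hg, Borcs7, Armcx3, Chmp1b and Mettl23. On day 6, 6 genes rose (0.043%), Cacna1g, Crhbp, Dbh, Igsf9b, Ntn1 and Sphkap, and 19 fell (0.136%), Chat among them. Of these calls 7 of 8 and 9 of 25 were also made over both days. The difference between days passed for 1 gene (0.00716%), Arhgap1, in the negative direction. Any other gene past the threshold on 1 day only is not shown to differ between days.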

How the data were processed

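The authors aligned reads to mm10 with ERCC sequences (nf-core rnaseq, STAR), counted them per refGene gene with featureCounts, ignoring duplicates, left out libraries that failed quality criteria and deposited a signal per gene, the read counts divided by a size factor per library. All 834400 values above 0 were whole multiples of 1 read (tolerance 0.01), which gave the reads for edgeR 4.0.16 and DESeq2 1.42.0. No pair of libraries held identical values. Limma 3.58.1 (R 4.3.3) was fitted to log2(value + 1) for 13964 of 25239 genes over all 65 libraries in 25 groups, with a trend, and p3 minus pMN averaged over both days. Adjusted p-values are Benjamini-Hochberg values over all tested genes, and SE is that of the log2 change. The added 1 makes changes of low genes smaller. Where only some libraries of a group are at 0, the change in mean log2 can instead be larger than the ratio of the means. On simulated data for this comparison (13463 genes) limma recovered 52 of 100 genes changed by a log2 of 2 and 86 of 100 changed by 4, with 2 false calls; edgeR made 0 false calls and DESeq2 142. The simulated libraries did not hold the gap in gene number between p3 and pMN, so these false calls do not cover it.

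Named genes were the 12 called genes with the largest change in each direction that had a mean of at least 100 normalised reads in 1 group and the same sign on both days, plus list members; others were chosen after their values were seen. Members and lists were chosen with earlier results of these data known. Alternatives were other pseudocounts, filters, scalings, covariates, tools and each library left out. Gene coordinates are those of the deposited annotation. Intervals and floors of 3 reads cover counting error only. Some list members are not reported here.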

Additional observations from a re-analysis of the deposited data

Results flagged for a closer look

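Arhgap1, which encodes a GTPase-activating protein (mm10, chr2:91650118-91672320), was the only gene whose difference between p3 and pMN itself differed between days in limma, and it was singled out by that interaction test. In p3 it counted 745.4, 775 and 517 normalised reads on day 5 and 0.804, 10.2 and 18.5 on day 6. In pMN it counted 569.7, 229 and 336 on day 5 and 678, 160.0 and 993 on day 6. The change on day 6 minus that on day 5 was -6.94 on the log2 scale (SE 1.21, adjusted p = 0.00878, with 1010 genes at an unadjusted p below 0.05), and every p3 library of day 6 lay below every other library of these groups. No gene was called with a pseudocount of 10 or with the replicate block. Leaving out 1 library ended the call in some fits, as without any 1 pMN library of day 5, and kept it in others, as without pMN replicate 2 of day 6. At 500 nM only the change over both days was fitted, 0.07, which holds no value for a difference between days. Groups of 3 libraries are too small for the test of a far-off sample.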

How the results depend on the processing

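Of the 65 calls between p3 and pMN at 100 nM, none changed direction among 1546 alternative values, of which 894 kept their side of the threshold and 652 no longer passed. The number of calls was 218 at an adjusted p of 0.05, 873 with DESeq2, 24 with edgeR, 30 with array weights, 28 with gene number as a covariate and 15 in the 12 libraries alone. It stayed within 1.5 times of 65 with a pseudocount of 10 (71), a stricter filter at a mean of 100 (48), no filter (61), quantile normalisation (62) and, in an alternative chosen after seeing the data, without both replicate 2 libraries of p3 (54, of which 35 were among the 65). The looser threshold admits more genes by construction. The cause of the other shifts was not tested.

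Leaving out 1 library gave 32 to 153 calls. The count rose to 153 without p3 replicate 3 of day 6, 137 without p3 replicate 1 of day 6 and 98 without p3 replicate 3 of day 5, and fell to between 32 and 42 without any 1 of the 6 pMN libraries. The same ranges were 4 to 109 on day 5, 7 to 201 on day 6, 0 to 37 for the difference between days, 0 to 14 for that between SAG doses and 4 to 43 at 500 nM. With a pseudocount of 10 there were 14 calls on day 5, 0 for the difference between days and 31 at 500 nM, where the stricter filter left 11. The difference in genes with a read was -1616.3 to -1071.7, with an exact permutation p of 0.01 to 0.065. That in total reads was 1273740 to 1953850, with an exact permutation p of 0.005 to 0.06.

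Replicate numbers are shared by the groups. Deviations of same-numbered p3 and pMN samples correlated by 0.0304 to 0.057 across genes, all 6 positive and each sample best with its own number. All were small, and the main fit did not pair the samples. These values do not settle whether it should have. The paper describes cell types sorted from 1 dish for accessibility, and RNA samples collected in that way. It does not say whether a replicate number of these RNA libraries marks 1 dish, and the block stayed an alternative. If the numbers do mark shared dishes, only the fits with the block keep the pairing. With a replicate block the calls were 39 over all libraries and 0 in the 12 libraries alone, 0 for the difference between days and 4 for that between SAG doses.

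Between 14.6% and 28.3% of tested genes had no read in a p3 library, against 9.22% to 19.9% in pMN, although p3 libraries held more reads.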
